A study of Mus musculus with 12 samples.

Results

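The genes described here carry out fatty acid oxidation in mouse liver or are direct targets and partners of PPAR-alpha, the receptor that controls it. They were chosen by name, as 37 listed genes of mitochondrial and peroxisomal oxidation, ketone body metabolism and PPAR-alpha signalling. The list was made with earlier results of these data known, which limits every comparison of its counts with the shares of all genes. Of the 37 genes, 34 had a probe set that carries their symbol alone, and all 34 were among the 17052 genes tested. Acadvl and Acot8 share their probe set with another symbol and Acsl1 has no probe set listed under its name, so these 3 genes were not analysed here.

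The study profiled liver RNA on 12 Affymetrix Mouse Gene 1.1 ST arrays, which measure each gene with probes spread along its transcript. The mice were females of strain BALB/cByJ, 2.5 months old, with free access to food and water, and were either Pml wt or Pml KO. Each genotype gave 3 groups of 2 arrays. One was untreated, and the others were taken 2 h and 6 h after an intraperitoneal injection of acetaminophen (APAP), at 300 mg/kg in warmed PBS. Whether untreated mice received a vehicle, which part of Pml is deleted, and whether the 2 arrays of a group came from different animals are not stated in the labels. The p-values therefore measure only how these samples vary, which may be technical. The study asks how the liver's response to an APAP overdose differs when Pml is absent. PML builds the nuclear bodies named after it and has been linked to PPAR signalling and fatty acid oxidation in other tissues.

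PPAR-alpha is a nuclear receptor that binds fatty acids and, paired with RXR, switches on the genes that burn them. In hepatocytes, fatty acids are taken up, bound, joined to coenzyme A and passed to carnitine by CPT1A, which is the gate into mitochondria. There a dehydrogenase, a hydratase, a second dehydrogenase and a thiolase shorten the chain in a cycle, electrons leave through the electron transfer flavoprotein, and the acetyl-CoA formed feeds ketone body synthesis during fasting. Peroxisomes shorten very long and dicarboxylic acids by a parallel route and hand the products on as carnitine esters. APAP overdose is known to impair mitochondria of hepatocytes near the central vein.

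RefSeq promoter windows, from 250 bases before to 50 bases after a start site (assembly GRCm38.p6), were found for 33 of the 37 genes. The motifs searched, on both strands, were the single nuclear receptor site AGGTCA, its direct repeat AGGTCANAGGTCA, and the relaxed repeat AGGNCANAGGNCA, which overlaps with the other motifs. The direct repeat with 1 spacer base is the known form of the PPAR response element. Its strict form was in 0 of the 37 promoters of these genes and in 0.0396% of all 32851 promoters. The relaxed form was in 1, that of Fabp1, and in 0.381% of all promoters. The single site was in 10 promoters of 9 genes (Acadm, Acadvl, Acot3, Acot4, Cd36, Cpt1a, Creb3l3, Echs1 and Fabp1) and in 16.3% of all. These matches describe the letters of a window of 300 bases and show no binding. The 150 bases just before the start site are shown for Fabp1, which holds the only relaxed repeat, and for Acot1, Pdk4 and Ehhadh, whose levels the results below turn on. Capitals mark the motif matches, and the lower-case sequences hold none of the 3 motifs.
Fabp1, chr6:71199729-71199878, plus strand: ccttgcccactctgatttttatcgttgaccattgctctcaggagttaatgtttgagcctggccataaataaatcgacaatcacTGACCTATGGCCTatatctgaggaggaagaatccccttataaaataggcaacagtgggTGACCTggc
Acot1, chr12:84009352-84009501, plus strand: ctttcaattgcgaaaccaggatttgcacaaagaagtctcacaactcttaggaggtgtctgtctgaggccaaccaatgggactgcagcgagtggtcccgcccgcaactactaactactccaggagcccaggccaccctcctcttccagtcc
Pdk4, chr6:5496279-5496428, minus strand: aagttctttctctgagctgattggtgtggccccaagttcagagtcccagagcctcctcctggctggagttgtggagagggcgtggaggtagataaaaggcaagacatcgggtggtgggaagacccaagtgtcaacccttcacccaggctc
Ehhadh, chr16:21787835-21787984, minus strand: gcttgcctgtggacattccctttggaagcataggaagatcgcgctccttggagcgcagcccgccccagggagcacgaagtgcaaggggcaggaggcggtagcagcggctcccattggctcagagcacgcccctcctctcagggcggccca

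Every value below is a log2 of the normalized intensity the authors deposited, and a difference is between means of 2 arrays with its standard error. A gene is called when the p-value of limma's test, adjusted over all 17052 genes by the Benjamini-Hochberg method, is under 0.05, and "rose" and "fell" are used of called genes. The words higher and lower in a gene's own arrays compare those arrays alone. Levels of different genes are not comparable, since each probe set has its own brightness. The 12 arrays had a median intensity of 79.9 to 90.1, and their number limits the precision. The median intensity was 82.3 and 83.6 in KO 2 h liver and 79.9 and 81.2 in KO 6 h liver. In the other arrays it was higher, at 84.9 to 90.1, so in treated liver array brightness went with genotype. In whole liver, fewer cells of a type and less RNA per cell cannot be told apart.

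Pml, the targeted gene, stood at 8.18 and 8.46 in untreated wt liver, 7.82 and 7.92 in the 2 h group and 7.87 and 7.88 in the 6 h group. Pml in KO liver read 7.10 and 7.97 untreated, 7.11 and 7.50 in the 2 h group and 7.09 and 7.16 in the 6 h group. As the mean of the 3 conditions, KO minus wt was -0.70 (limma, adjusted p = 0.035), a call that ended in 10 of 20 alternative settings. Within each condition alone Pml was not called between genotypes. The value of 7.97, of untreated KO replicate 2, is within the span of the wt values. Another array, KO 6 h replicate 2, stood apart from the other 6 h arrays on the first principal component of all tested genes (19.8, against 39.7 to 44.8). For 18 of the 34 genes described here this array was the lowest of all 12, against 9.86% of all genes. It lay below KO 6 h replicate 1 in 29 of 34, against 43.2% of all genes, with a median difference of -0.22. In the wt 6 h group, too, replicate 2 lay below replicate 1 in 26 of 34, against 45.9% of all genes, with a median of -0.16. Such a gap is therefore not particular to the KO 6 h group. Counts that leave out either of the KO arrays singled out above are given with the results.

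Most oxidation genes were raised 2 h after APAP in both genotypes. In wt liver 21 of the 34 genes rose and 1 fell, against 6.53% and 6.17% of all tested genes, and the median difference from untreated liver was 0.62, against 0.02 over all genes. In KO liver 22 rose and 1 fell, against 10.6% and 20.8%, with a median of 0.57 against -0.06. The genes that rose span uptake, the carnitine shuttle, the mitochondrial cycle, the peroxisome and a thioesterase. The gene that fell was the hydratase gene Echs1 in each genotype. The heat map of all arrays shows these as the red columns of both 2 h groups. Of the 34 genes, 18 had their highest value of all 12 arrays in wt 2 h replicate 2 and 11 in wt 2 h replicate 1, against 6.99% and 11.6% of all genes.

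Fewer genes were called above untreated liver at 6 h than at 2 h. In wt liver 8 of 34 were called higher and 6 lower, against 16.5% and 22% of all genes, and the median was -0.09 (-0.05 over all genes). In KO liver 5 were higher and 13 lower, against 15.8% and 19.1%, with a median of -0.24 (-0.05 over all genes). Vnn1, Acot1, Ehhadh, Pex11a and Crat were the genes called higher in KO liver, and each was also called higher in wt liver. From 2 h to 6 h, all 34 differences were below 0 in each genotype, from -1.35 to -0.21 in wt (61.5% of all genes were below 0) and from -2.40 to -0.16 in KO liver (51.3%). Of these, 28 fell in wt, against 16.8% of all genes, and 28 in KO liver, against 12.6%, and 0 rose in either by limma, against 10.9% and 19.1% of all genes. All of the 30 wt and 31 KO genes with an unadjusted p under 0.05 were lower. These comparisons share arrays, since the 2 h and untreated groups each enter 2 of them, so a high 2 h array moves both.

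**Figure D1:**
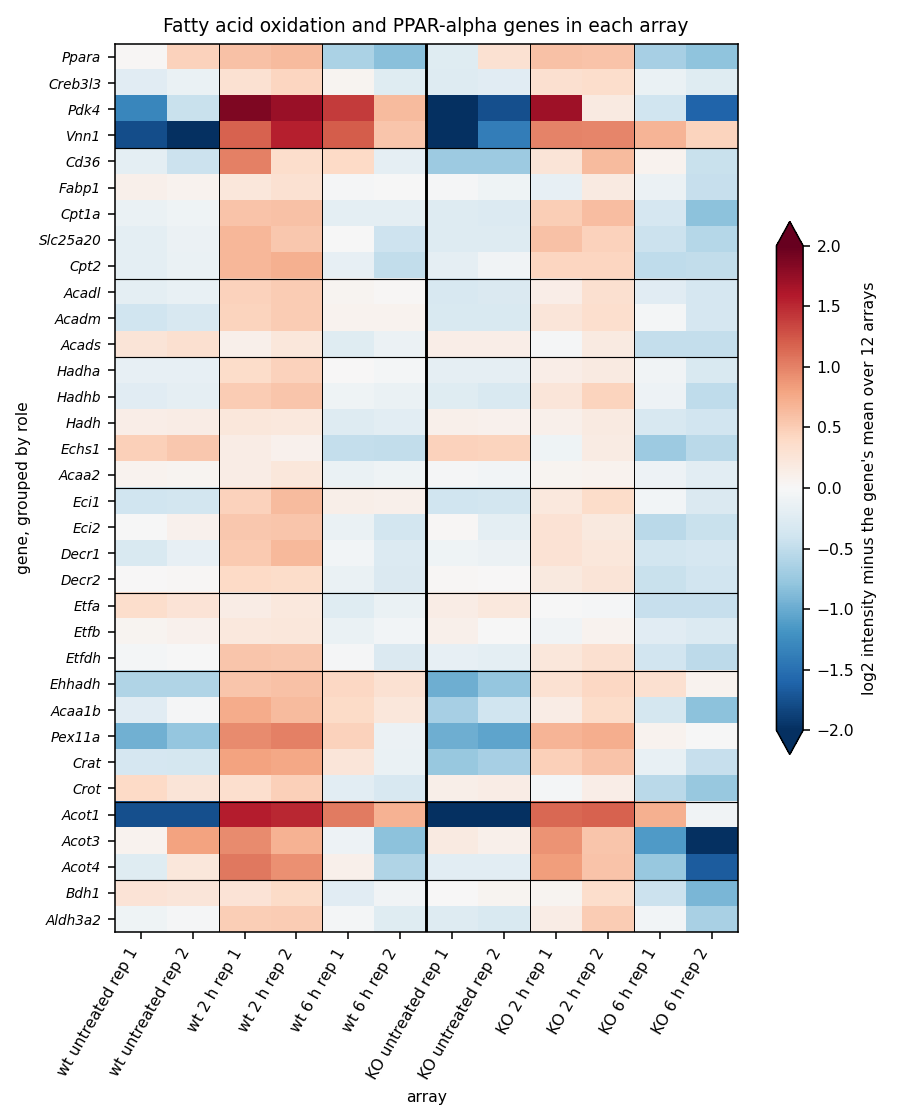
Log2 intensity of each gene (rows, grouped by role with black lines between roles) in each of the 12 arrays (columns), as the difference from that gene's mean over the 12 arrays; the colour scale stops at -2 and 2. Both 2 h groups are mostly red, and KO 6 h replicate 2, at the right edge, was the lowest array for 18 of the 34 genes.

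Several of these calls depended on single arrays. Of the 21 genes called higher in wt liver at 2 h, 12 stayed called whichever single array was left out, and Creb3l3, Pdk4, Cd36, Cpt1a, Slc25a20, Eci2, Decr2, Etfdh and Acaa1b did not (adjusted p up to 0.236). Dropping untreated wt replicate 1, or dropping wt 2 h replicate 1, left 13. In KO liver at 2 h, 16 of 22 stayed, and Ppara, Hadha, Decr1, Etfdh, Acot4 and Aldh3a2 did not (adjusted p up to 0.336). Without untreated KO replicate 2 the KO count at 2 h was 17 higher. At 6 h, 5 of the 8 higher and all 6 lower calls of wt liver stayed (5 higher without untreated wt replicate 1), as did 4 of 5 and 8 of 13 in KO liver. For KO liver at 6 h the counts were 4 higher and 9 lower without untreated KO replicate 2, and 5 higher and 10 lower without KO 6 h replicate 2. Between 2 h and 6 h, 14 of 28 calls stayed in wt and 21 of 28 in KO liver. Of the wt arrays, dropping replicate 1 of the 2 h group left a count of 18, dropping replicate 2 of it left 14, and dropping replicate 2 of the 6 h group left 16. With the compared groups alone, the 2 h calls of Hadha (0.0702), Decr1 (0.0618) and Echs1 (0.0642) ended in KO liver and that of Decr2 (0.0506) in wt liver. So did the 6 h calls of Eci2 (0.0552) and Etfb (0.0894) in KO liver. Between 2 h and 6 h that setting ended the KO calls of Pdk4, Acadl, Acadm, Hadha, Hadhb, Eci1, Etfa, Acot1 and Aldh3a2 (0.0526 to 0.136). It also ended the wt calls of Creb3l3, Acads, Acaa2, Etfa and Etfb (0.0509 to 0.0882).

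Among the regulators, Ppara itself, the gene of the receptor, was high at 2 h and low at 6 h. On the log2 scale Ppara read 10.84 and 11.27 in untreated wt liver, 11.40 and 11.45 in the 2 h group and 10.18 and 9.98 in the 6 h group. Ppara in KO liver read 10.58 and 11.13 untreated, 11.39 and 11.38 in the 2 h group and 10.16 and 10.02 in the 6 h group. All 4 arrays at 6 h lay below all 8 others, in both genotypes. Against untreated liver Ppara fell by 0.98 ± 0.18 in wt at 6 h (adjusted p = 0.00211) and by 0.77 ± 0.18 in KO (adjusted p = 0.00909), which is 1.97-fold and 1.7-fold on the linear scale. The KO call at 6 h ended without untreated KO replicate 2 (adjusted p = 0.0816). At 2 h the difference was 0.37 ± 0.18 in wt (adjusted p = 0.227), where it was not called, and 0.53 ± 0.18 in KO (adjusted p = 0.0497). Leaving out any 1 of 9 arrays ended that KO call (adjusted p up to 0.336), and it held without either untreated wt array or untreated KO replicate 2. It also ended without the filter, after quantile normalization, with the compared groups alone and with the replicate block (adjusted p of 0.0522 to 0.0888). Between 2 h and 6 h Ppara fell by 1.35 ± 0.18 in wt and 1.30 ± 0.18 in KO liver (adjusted p = 0.000876 and 0.000728), the largest fall called in wt.

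Creb3l3, which encodes the hepatic transcription factor CREBH, a partner of PPAR-alpha in fasting, rose at 2 h by 0.55 ± 0.12 in wt and 0.58 ± 0.12 in KO liver (adjusted p = 0.0131 and 0.00491). The wt call was lost when replicate 2 of the 2 h group or either untreated array was dropped (0.0543 to 0.0941). At 6 h it differed from untreated liver by 0.09 ± 0.12 and 0.06 ± 0.12, not called in either. Its 6 h arrays overlapped with the untreated ones in both genotypes.

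Pdk4 blocks pyruvate dehydrogenase and so spares glucose when fatty acids are burned, and it is a well known PPAR-alpha target. Its level was 9.42 and 10.29 in untreated wt liver, 12.60 and 12.46 in the 2 h group and 12.12 and 11.35 in the 6 h group. Pdk4 in KO liver read 8.73 and 8.97 untreated, 12.43 and 10.90 in the 2 h group and 10.34 and 9.12 in the 6 h group. The 2 arrays of several groups were far from each other here. Replicate 2 lay 1.53 below replicate 1 in KO liver at 2 h, 1.22 below at 6 h, and 0.76 below in wt liver at 6 h. In untreated wt liver it lay 0.87 above replicate 1, while the wt arrays at 2 h were closer. Pdk4 rose at 2 h by 2.67 ± 0.51 in wt and 2.81 ± 0.51 in KO liver (adjusted p = 0.00768 and 0.00291), 6.37-fold and 7.03-fold. At 6 h it was still 1.88 ± 0.51 above untreated in wt (adjusted p = 0.0144). In KO liver the 6 h difference of 0.88 ± 0.51 did not pass (adjusted p = 0.211). Both wt calls ended without untreated wt replicate 1, and that at 2 h without wt 2 h replicate 1 and that at 6 h without wt 6 h replicate 1 (adjusted p of 0.0589 to 0.06 at 2 h and 0.102 to 0.103 at 6 h). From 2 h to 6 h Pdk4 fell by 1.94 ± 0.51 in KO liver (adjusted p = 0.0158), a call that ended without KO 2 h replicate 1 or KO 6 h replicate 2 (0.109 to 0.121) and with the compared groups alone (0.0629). In wt liver that step was -0.79 ± 0.51 (adjusted p = 0.273).

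Vnn1, a pantetheinase that recycles a precursor of coenzyme A, had the largest estimated rise of the 34 genes in wt liver at both times. It stood at 9.20 and 8.68 in untreated wt liver, 12.15 and 12.53 in the 2 h group and 12.18 and 11.53 in the 6 h group. Vnn1 in KO liver read 8.81 and 9.59 untreated, 11.95 and 11.95 in the 2 h group and 11.65 and 11.42 in the 6 h group. No treated array of either genotype overlapped with an untreated one. In wt liver Vnn1 rose by 3.40 ± 0.28 at 2 h and by 2.91 ± 0.28 at 6 h (adjusted p = 0.000101 and 5.12e-05), 10.6-fold and 7.53-fold. It rose by 2.75 ± 0.28 and 2.33 ± 0.28 in KO liver (adjusted p = 0.000237 and 0.00019). Its step from 2 h to 6 h, -0.49 ± 0.28 in wt and -0.42 ± 0.28 in KO, was not called.

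**Figure D2:**
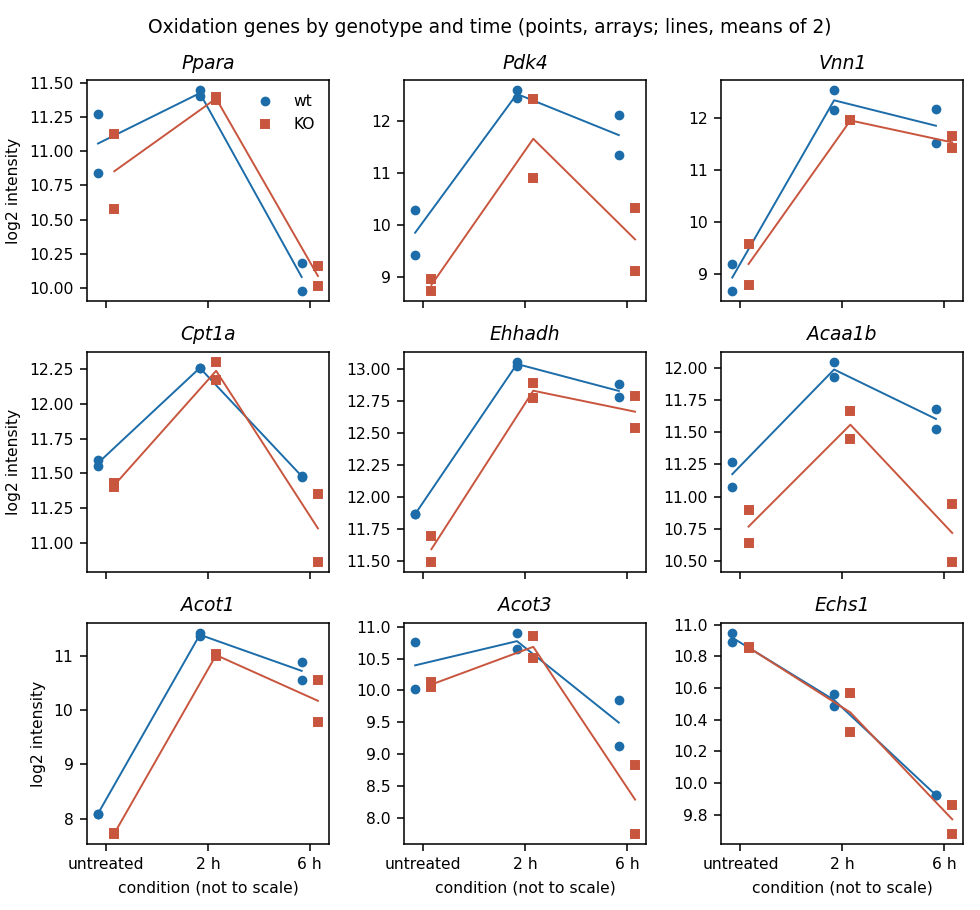
Log2 intensity of 9 genes (one panel each, with its own vertical scale) in untreated liver and 2 h and 6 h after APAP; blue circles are wt arrays, red squares KO arrays, and lines join the means of 2 arrays, with conditions at equal steps and not to scale. Ppara at 6 h lies between 9.98 and 10.18 in all 4 arrays, below every untreated and 2 h array, while Echs1 is lower at 6 h than at 2 h in both genotypes.

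Genes that bring fatty acids to the mitochondrial matrix rose at 2 h, apart from Fabp1, and were not called higher at 6 h. Of the 5 tested, 4 rose at 2 h in each genotype, against 6.53% of all genes in wt and 10.6% in KO liver. At 6 h 0 of the 5 were called in wt (limma, 0 with an unadjusted p under 0.05). Of all genes, 16.5% were called higher and 22% lower there. In KO liver 1, Cpt2, was called lower at 6 h, against 19.1% of all genes. Cpt1a, the rate-limiting carnitine palmitoyltransferase, stood at 11.55 and 11.60 in untreated wt liver, 12.26 and 12.26 in the 2 h group and 11.48 and 11.48 in the 6 h group. Cpt1a in KO liver read 11.43 and 11.40 untreated, 12.17 and 12.30 in the 2 h group and 11.35 and 10.86 in the 6 h group. The 4 arrays at 2 h were the 4 highest, and KO 6 h replicate 2 was the lowest. Cpt1a rose by 0.68 ± 0.14 in wt and 0.82 ± 0.14 in KO liver at 2 h (adjusted p = 0.0111 and 0.00221), 1.61-fold and 1.77-fold. At 6 h it differed from untreated by -0.09 ± 0.14 and -0.31 ± 0.14 (adjusted p = 0.634 and 0.113). The wt call at 2 h ended without either untreated wt array or either wt 2 h array (adjusted p of 0.0604 to 0.0711).

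Slc25a20, the carrier that exchanges acylcarnitine for carnitine across the inner membrane, rose at 2 h by 0.76 ± 0.13 in wt and 0.78 ± 0.13 in KO liver, and the wt call ended without wt 2 h replicate 1 (adjusted p = 0.0529). Cpt2, which returns the chain to coenzyme A inside the mitochondrion, rose by 0.85 ± 0.12 and 0.55 ± 0.12. Between 2 h and 6 h Cpt2 fell by 1.02 ± 0.12 in wt and 0.93 ± 0.12 in KO liver, and in KO it ended 0.38 ± 0.12 below untreated liver (adjusted p = 0.0285), a call lost without any of the 4 arrays compared (0.0619 to 0.151). Cd36, a fatty acid translocase that macrophages and endothelium also express, rose at 2 h by 0.99 ± 0.26 in wt and 1.17 ± 0.26 in KO, and its wt call was lost when replicate 1 of the 2 h group or either untreated array was dropped (0.0773 to 0.236). Fabp1, the abundant fatty acid binding protein of hepatocytes whose promoter is shown above, was called in none of the comparisons with untreated liver. Its differences were 0.18 ± 0.14 and -0.10 ± 0.14 in wt at 2 h and 6 h, and 0.05 ± 0.14 and -0.24 ± 0.14 in KO liver.

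In the mitochondrial cycle, the dehydrogenases of long and medium chains rose at 2 h and that of short chains did not. Acadm, the medium-chain enzyme, rose by 0.84 ± 0.11 in wt and 0.59 ± 0.11 in KO liver, and in wt it was still higher by 0.44 ± 0.11 at 6 h (adjusted p = 0.0109). That last call ended without untreated wt replicate 1 (adjusted p = 0.0646). Acadl, the long-chain enzyme, rose by 0.66 ± 0.10 and 0.53 ± 0.10 at 2 h. Acads, the short-chain enzyme, stood at -0.12 and -0.05 at 2 h, not called, and fell at 6 h by 0.47 ± 0.10 in wt and 0.60 ± 0.10 in KO liver (adjusted p = 0.00522 and 0.00154). Whether the short-chain gene differs from the others was not tested.

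The later steps of the cycle also held genes that were called at 2 h and genes that were not. Hadha and Hadhb, the subunits of the trifunctional protein that acts on long chains at the inner membrane, rose at 2 h. Hadha rose by 0.58 ± 0.10 in wt and 0.34 ± 0.10 in KO liver, where the call was lost without any of the 4 arrays compared (0.0705 to 0.114), and Hadhb by 0.74 ± 0.13 and 0.63 ± 0.13. The second probe set of Hadhb gave the same course, and RefSeq lists a Hadhb pseudogene, so transcripts of both may be read together. At 6 h neither was called in either genotype. Hadh, the dehydrogenase of shorter chains in the matrix, and Acaa2, the matrix thiolase, were not called at 2 h. Hadh fell at 6 h by 0.37 ± 0.09 in wt and 0.44 ± 0.09 in KO liver.

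Echs1, the short-chain enoyl-CoA hydratase, was the gene that fell at both times in both genotypes. It stood at 10.89 and 10.95 in untreated wt liver, 10.56 and 10.49 in the 2 h group and 9.92 and 9.92 in the 6 h group. Echs1 in KO liver read 10.86 and 10.85 untreated, 10.32 and 10.57 in the 2 h group and 9.68 and 9.86 in the 6 h group. Within each genotype the 3 conditions did not overlap, with untreated arrays highest and 6 h arrays lowest. The fall was 0.996 ± 0.11 in wt and 1.09 ± 0.11 in KO liver at 6 h (adjusted p = 9.78e-05 and 7.38e-05), 1.99-fold and 2.12-fold. At 2 h it was 0.39 ± 0.11 in wt (adjusted p = 0.0422) and 0.41 ± 0.11 in KO (adjusted p = 0.0177). Leaving out any 1 of 8 arrays ended the wt call at 2 h (adjusted p up to 0.2), and it held without any 1 of the KO arrays at 2 h and 6 h. It also ended after quantile normalization (0.0565). The KO call at 2 h ended without either untreated KO array or KO 2 h replicate 1 (0.0751 to 0.117).

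Auxiliary enzymes that let unsaturated chains enter the cycle rose at 2 h. All 4 did so in wt and 2 of 4 in KO liver, against 6.53% and 10.6% of all genes. Those that rose in wt liver were the isomerase genes, Eci1 by 0.93 ± 0.11 and Eci2 by 0.51 ± 0.12, and the 2,4-dienoyl-CoA reductase genes, Decr1, of mitochondria, by 0.82 ± 0.11 and Decr2, of peroxisomes, by 0.37 ± 0.10. In KO liver Eci1 rose by 0.67 ± 0.11 and Decr1 by 0.36 ± 0.11, and Eci2 (0.33 ± 0.12) and Decr2 (0.21 ± 0.10) were not called. Tested between genotypes, the 2 h rise differed in 0 of the 4 genes (limma, 1 with an unadjusted p under 0.05). The counts of 4 and 2 therefore show no contrast of genotypes. Leaving out any of the 4 arrays compared ended the wt calls of Eci2 (0.0709 to 0.101) and Decr2, which also ended without either untreated KO array (0.0507 to 0.151), and the KO call of Decr1 (0.0617 to 0.126). By 6 h Eci1 was still higher in wt liver (0.49 ± 0.11, adjusted p = 0.00612), while in KO liver Eci2 had fallen by 0.41 ± 0.12 and Decr2 by 0.43 ± 0.10. That call of Eci2 was lost when replicate 1 of either group was dropped (0.106 to 0.143).

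The electron transfer flavoprotein passes electrons from the dehydrogenases to the respiratory chain. Etfdh, its membrane-bound oxidoreductase, rose at 2 h by 0.57 ± 0.11 in wt and 0.44 ± 0.11 in KO liver. Its wt call was lost when replicate 1 of the untreated or the 2 h group was dropped (adjusted p of 0.0504 to 0.058), and its KO call without either untreated KO array or KO 2 h replicate 2 (0.0523 to 0.0691). The subunit genes Etfa and Etfb were not called at 2 h. Etfa fell at 6 h by 0.50 ± 0.09 in wt and 0.63 ± 0.09 in KO liver (adjusted p = 0.0018 and 0.000541), and Etfb fell by 0.30 ± 0.10 in KO (adjusted p = 0.0322), a call lost without any of the 4 arrays compared (0.0634 to 0.171).

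Several peroxisomal genes were still called higher at 6 h. Of the 5 tested, 4 rose at 2 h in each genotype, against 6.53% of all genes in wt and 10.6% in KO liver. At 6 h 3 were higher and 1, Crot, was lower in each genotype. Of all genes, 16.5% were called higher and 22% lower in wt, and 15.8% and 19.1% in KO liver. Ehhadh, the bifunctional enzyme of peroxisomal oxidation, stood at 11.86 and 11.87 in untreated wt liver, 13.02 and 13.05 in the 2 h group and 12.88 and 12.77 in the 6 h group. Ehhadh in KO liver read 11.49 and 11.69 untreated, 12.77 and 12.88 in the 2 h group and 12.79 and 12.54 in the 6 h group. All 8 treated arrays lay above all 4 untreated ones. Wt liver showed Ehhadh risen by 1.17 ± 0.12 at 2 h and by 0.96 ± 0.12 at 6 h, 2.25-fold and 1.95-fold (adjusted p = 0.000231 and 0.000157). In KO liver it rose by 1.24 ± 0.12 and 1.07 ± 0.12 (adjusted p = 0.000151 and 0.000102). Its step from 2 h to 6 h was -0.21 ± 0.12 in wt and -0.16 ± 0.12 in KO, not called.

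Pex11a, which drives division of peroxisomes, rose by 1.84 ± 0.16 at 2 h in wt liver and was 1.04 ± 0.16 above untreated at 6 h. In KO liver it rose by 1.72 ± 0.16 and 1.05 ± 0.16. Crat, the carnitine acetyltransferase that exports short chains, rose by 1.13 ± 0.14 in wt and 1.24 ± 0.14 in KO liver at 2 h. At 6 h its differences of 0.40 ± 0.14 and 0.41 ± 0.14 were just past the threshold (adjusted p = 0.0474 and 0.0443). Leaving out any 1 of 9 arrays ended each of these 6 h calls, with adjusted p up to 0.326 in wt and 0.278 in KO liver. The wt call held without wt 6 h replicate 2 or either KO 6 h array, and the KO call without either wt 6 h array or KO 6 h replicate 2. Both 6 h calls of Crat also ended without the filter (0.0534 in wt, and just past 0.05 in KO liver) and with the compared groups alone (0.0924 and 0.0761).

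Crot, the octanoyltransferase that releases medium chains from the peroxisome, was not called at 2 h and fell at 6 h. Its level was 12.39 and 12.26 in untreated wt liver, 12.34 and 12.48 in the 2 h group and 11.79 and 11.67 in the 6 h group. Crot in KO liver read 12.12 and 12.14 untreated, 11.95 and 12.13 in the 2 h group and 11.45 and 11.24 in the 6 h group. In both genotypes the 2 h arrays overlapped with the untreated ones and the 6 h arrays lay below them. Crot fell at 6 h by 0.60 ± 0.12 in wt and 0.78 ± 0.12 in KO liver (adjusted p = 0.00265 and 0.00063).

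Acaa1b, a peroxisomal thiolase, had levels of 11.08 and 11.27 in untreated wt liver, 12.05 and 11.93 in the 2 h group and 11.68 and 11.52 in the 6 h group. Acaa1b in KO liver read 10.64 and 10.90 untreated, 11.45 and 11.67 in the 2 h group and 10.95 and 10.49 in the 6 h group. In each condition both KO arrays lay below both wt arrays. Acaa1b rose at 2 h by 0.81 ± 0.16 in wt and 0.79 ± 0.16 in KO liver (adjusted p = 0.00999 and 0.00544), and the wt call was lost when replicate 1 of either group was dropped (0.0701 to 0.0807). At 6 h the differences were 0.43 ± 0.16 and -0.05 ± 0.16 (adjusted p = 0.0611 and 0.842). From 2 h to 6 h it fell by 0.84 ± 0.16 in KO liver (adjusted p = 0.00358), against -0.38 ± 0.16 in wt, not called. Acaa1a, its neighbour in the RefSeq gene order, is a close paralog, so probes may read both.

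Acyl-CoA thioesterases split the chain from coenzyme A, and the 3 tested differed in their course. Acot1, the cytosolic enzyme known for strong induction by PPAR-alpha, stood at 8.09 and 8.09 in untreated wt liver, 11.42 and 11.36 in the 2 h group and 10.90 and 10.55 in the 6 h group. Acot1 in KO liver read 7.73 and 7.72 untreated, 11.00 and 11.03 in the 2 h group and 10.56 and 9.78 in the 6 h group. Every treated array lay above every untreated array. Acot1 rose by 3.30 ± 0.21 in wt and 3.29 ± 0.21 in KO liver at 2 h, 9.85-fold and 9.79-fold (adjusted p = 2.39e-05 and 2.01e-05). At 6 h it was 6.21-fold and 5.46-fold above untreated liver, or 2.63 ± 0.21 and 2.45 ± 0.21 (adjusted p = 1.63e-05 and 2.75e-05). Its fall from 2 h to 6 h was 0.67 ± 0.21 in wt and 0.84 ± 0.21 in KO liver (adjusted p = 0.0358 and 0.0113). Leaving out any 1 of 7 arrays ended that wt call (0.0501 to 0.199), which held without wt 6 h replicate 1 or any 1 of the KO arrays at 2 h and 6 h. The KO call ended without KO 2 h replicate 2 or KO 6 h replicate 2 (0.0511 to 0.0534). The wt call also ended after quantile normalization (0.0587) and the KO call with the compared groups alone (0.0667).

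Acot3, a peroxisomal thioesterase, was not called at 2 h in either genotype. It stood at 10.02 and 10.76 in untreated wt liver, 10.90 and 10.65 in the 2 h group and 9.86 and 9.13 in the 6 h group. Acot3 in KO liver read 10.13 and 10.05 untreated, 10.86 and 10.51 in the 2 h group and 8.82 and 7.75 in the 6 h group. The KO arrays at 6 h were the lowest of the 12, with replicate 2 well below replicate 1. Acot3 fell by 1.81 ± 0.35 in KO liver at 6 h (adjusted p = 0.00295), 3.49-fold, and differed by -0.90 ± 0.35 in wt, not called (adjusted p = 0.0675). Between 2 h and 6 h it fell by 1.28 ± 0.35 in wt and 2.40 ± 0.35 in KO liver (adjusted p = 0.0224 and 0.000863). The wt call ended without either wt 2 h array or wt 6 h replicate 2 (0.0668 to 0.151).

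Acot4, a peroxisomal enzyme for dicarboxylic chains, stood at 10.23 and 10.70 in untreated wt liver, 11.52 and 11.38 in the 2 h group and 10.57 and 9.88 in the 6 h group. Acot4 in KO liver read 10.27 and 10.26 untreated, 11.31 and 11.04 in the 2 h group and 9.72 and 8.81 in the 6 h group. Its 2 h arrays were the 4 highest of the 12, and the KO arrays at 6 h were the lowest. Acot4 rose by 0.91 ± 0.29 in KO liver at 2 h (adjusted p = 0.0373), and the wt difference of 0.99 ± 0.29 missed the threshold (adjusted p = 0.0522). At 6 h it fell by 0.997 ± 0.29 in KO liver (adjusted p = 0.0233), while the wt difference was -0.24 ± 0.29 (adjusted p = 0.552). The KO call at 2 h ended without any of the arrays of untreated KO, wt 2 h or KO 2 h liver (0.0534 to 0.16). That at 6 h ended without either untreated KO array or KO 6 h replicate 2 (0.0849 to 0.168). From 2 h to 6 h Acot4 fell by 1.23 ± 0.29 in wt and 1.91 ± 0.29 in KO liver (adjusted p = 0.012 and 0.00106), and the wt call ended without either wt 2 h array or wt 6 h replicate 2 (0.0505 to 0.0899). Acot1, Acot3 and Acot4 neighbour each other and Acot2 in the RefSeq gene order and are close paralogs, so their probes may read one another's transcripts.

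Of the last pair, Bdh1, the mitochondrial enzyme that turns acetoacetate into 3-hydroxybutyrate, was not called at 2 h. It fell at 6 h by 0.70 ± 0.16 in KO liver (adjusted p = 0.00649) and differed by -0.40 ± 0.16 in wt (adjusted p = 0.0672). Aldh3a2, the fatty aldehyde dehydrogenase, rose at 2 h by 0.61 ± 0.18 in KO liver (adjusted p = 0.0267), and its wt difference of 0.56 ± 0.18 was not called (adjusted p = 0.07). That KO call ended without either untreated KO array or KO 2 h replicate 2 (0.085 to 0.161).

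**Figure D3:**
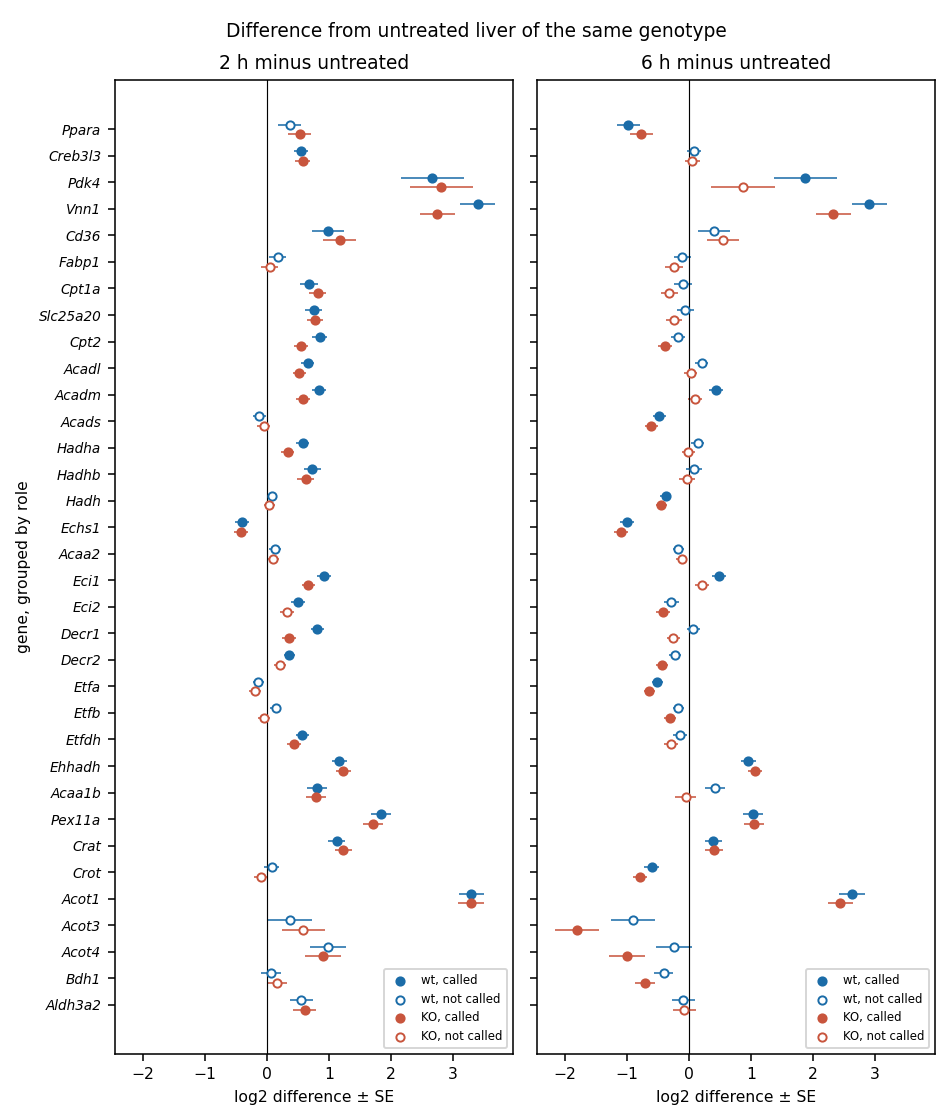
Log2 difference from untreated liver of the same genotype (horizontal axis, with its standard error) for each of the 34 genes (vertical axis, grouped by role) at 2 h (left) and 6 h (right); blue is wt, red is KO, filled points are called and open points are not. At 2 h, 21 wt and 22 KO genes are called to the right of 0 and Echs1 to the left, and at 6 h 13 KO genes are called to the left.

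KO and wt liver were then compared within each condition. In untreated liver 0 of the 34 genes differed by limma (3 with an unadjusted p under 0.05), against 0.00586% of all genes called, and 29 of the 34 differences lay below 0 (25 after quantile normalization), against 52.1% of all genes. The widest, Pdk4, was -1.01 ± 0.51. At 2 h 0 were called (10 with an unadjusted p under 0.05), against 2.01% of all genes. All 34 differences lay below 0 there, against 67.1% of all genes, with a median of -0.23 against -0.10. After quantile normalization, which brought the median of all genes to -0.01, 33 of the 34 lay below 0 with a median of -0.20. That normalization also moved the share of all called genes that were higher in KO from 20.5% to 50.3%.

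At 6 h 2 of the 34 genes were called, both lower in KO liver, against 4.93% of all genes called lower. They were Pdk4, at -2.01 ± 0.51 (adjusted p = 0.0376), and Acaa1b, at -0.89 ± 0.16 (adjusted p = 0.0133), which is 4.02-fold and 1.85-fold lower. Both KO arrays of each gene lay below both wt arrays. Another 13 genes had an unadjusted p under 0.05 without passing, and 33 of 34 differences lay below 0, against 49% of all genes, with a median of -0.27 against 0.01. Of those not called, Acot3 (-1.21 ± 0.35, adjusted p = 0.0578), Acot4 (-0.96 ± 0.29, 0.0655), Acot1 (-0.55 ± 0.21, 0.111) and Bdh1 (-0.52 ± 0.16, 0.064) had the widest differences. Ppara stood at 0.01 ± 0.18, the one difference above 0. After quantile normalization all 34 lay below 0, with a median of -0.30 against 0.04 over all genes.

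These 6 h calls rested on few arrays. When KO 6 h replicate 2 was dropped, 0 of the 34 were called, 30 lay below 0 and the median was -0.18. Without wt 6 h replicate 1, 0 were called as well, 28 lay below 0 and the median was -0.16. Without KO 6 h replicate 1 or wt 6 h replicate 2 the count was 8 and 6, and it was 1 without either untreated KO array or either wt 2 h array. The call of Acaa1b ended without wt 6 h replicate 1 or KO 6 h replicate 2 (adjusted p of 0.0907 to 0.109). That of Pdk4 ended without these arrays and without either untreated KO array or either wt 2 h array (0.055 to 0.241). Both calls also ended with the compared groups alone (0.084 for Pdk4 and 0.0795 for Acaa1b).

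As the mean of the 3 conditions, 2 genes were called lower in KO liver, against 1.45% of all genes: Acaa1b at -0.57 ± 0.09 (adjusted p = 0.0198) and Crot at -0.32 ± 0.07 (adjusted p = 0.0481). Pdk4 had a wider mean difference of -1.29 ± 0.29 that did not pass (adjusted p = 0.0568). All 34 mean differences lay below 0, against 59.4% of all genes, with a median of -0.19 against -0.03, and 19 had an unadjusted p under 0.05. After quantile normalization all 34 still lay below 0, with a median of -0.18 against 0.02 over all genes. The count of called genes was 6 without KO 6 h replicate 1. It was 1 when untreated wt replicate 1, KO 6 h replicate 2 or untreated KO replicate 2 was dropped. It was 0 without untreated wt replicate 2, untreated KO replicate 1, either wt 2 h array or wt 6 h replicate 1. Acaa1b lost its call (adjusted p of 0.0547 to 0.071) without untreated wt replicate 2, untreated KO replicate 1, either wt 2 h array or wt 6 h replicate 1. Crot kept it without KO 2 h replicate 2 or KO 6 h replicate 1 and lost it without each of the 10 other arrays (0.0518 to 0.124). It also lost it without the filter, after quantile normalization and with the replicate block (0.0542 to 0.0623).

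**Figure D4:**
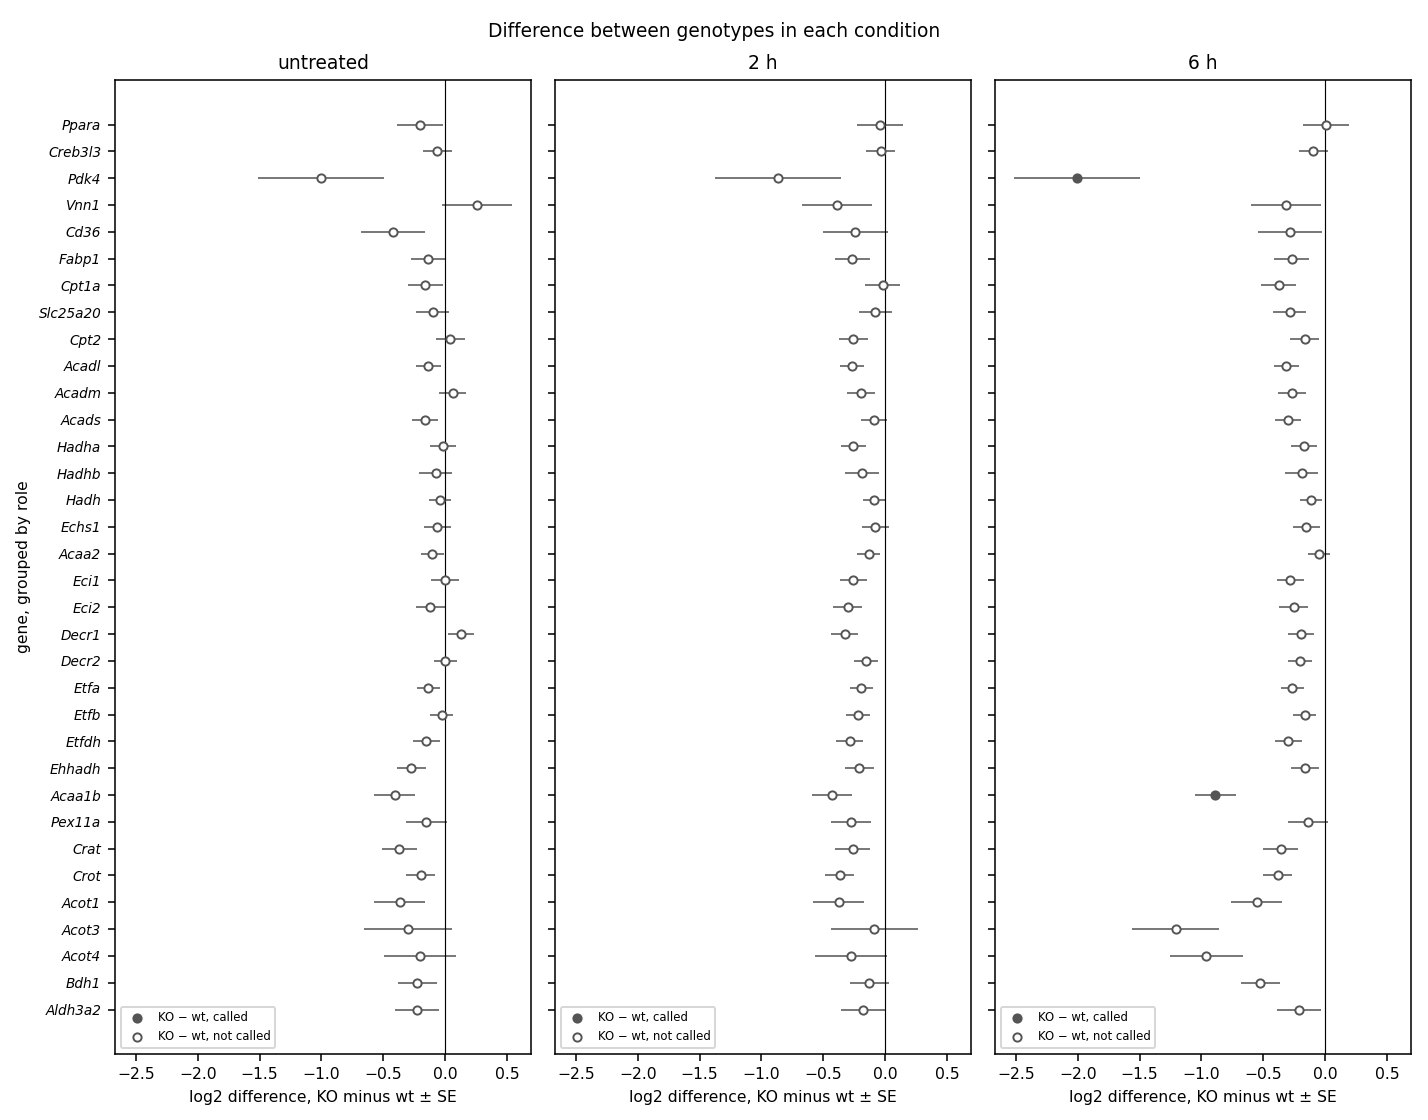
Log2 difference between KO and wt liver (horizontal axis, KO minus wt, with its standard error) for each of the 34 genes (vertical axis, grouped by role) in untreated liver, at 2 h and at 6 h; filled points are called. The called points are Pdk4 and Acaa1b at 6 h, and 29, 34 and 33 of the 34 points lie left of 0 in the 3 panels.

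Whether the response to APAP itself differed between genotypes was tested as the KO response minus the wt response. By limma, 0 of the 34 genes were called at 2 h (1 with an unadjusted p under 0.05) against 0.0293% of all genes, and 0 at 6 h (0 with an unadjusted p under 0.05) against 0.487%. For the step from 2 h to 6 h 0 were called (1 with an unadjusted p under 0.05) against 7.03% of all genes, and 2 without KO 6 h replicate 1. The median of the 34 was -0.05 at 2 h, -0.15 at 6 h and -0.04 for the step. Over all genes it was -0.09, 0.03 and 0.09. The widest values at 6 h were those of Pdk4 (-1.003 ± 0.72), Acot3 (-0.91 ± 0.50) and Acot4 (-0.76 ± 0.41), with adjusted p = 0.516, 0.395 and 0.394. For Acot1, the response differed by -0.01 ± 0.29 at 2 h and -0.19 ± 0.29 at 6 h, and for Ppara by 0.16 ± 0.26 and 0.21 ± 0.26. With 2 arrays a group the standard error of such a difference ran from 0.13 to 0.72 across the 34 genes, so small differences in response were not detectable. A gene called in 1 genotype alone, such as Acot3 or Bdh1 at 6 h, is therefore not shown to respond differently.

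The wider pathway was read from a list of 65 further genes of lipid oxidation and its control, of which 55 were tested and the rest were not analysed here. In wt liver at 2 h 18 of the 55 rose and 8 fell, against 6.53% and 6.17% of all genes, with a median of 0.30 (0.02 over all genes). In KO liver 17 rose and 9 fell, against 10.6% and 20.8%, with a median of 0.19 (-0.06 over all genes). The counts that fell depended on single arrays: in wt liver 2 were left without any one of the 4 arrays compared, and in KO liver 5 without either untreated array. Those with the smallest p were Plin5 and Plin2, which coat lipid droplets, Acot2, the mitochondrial thioesterase, and Slc22a5, the carnitine importer. In wt liver Plin5 rose by 2.58 ± 0.16, Plin2 by 1.22 ± 0.10, Acot2 by 2.75 ± 0.24 and Slc22a5 by 1.93 ± 0.17. In KO liver they rose by 1.78 ± 0.16, 1.53 ± 0.10, 2.89 ± 0.24 and 2.17 ± 0.17. Several of these genes are known PPAR-alpha targets, like those described above.

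At 6 h 12 genes of the wider list were called higher and 22 lower in wt liver, against 16.5% and 22% of all genes, with a median of -0.18 (-0.05 over all genes). In KO liver 9 were higher and 28 lower, against 15.8% and 19.1%, with a median of -0.40 (-0.05 over all genes). The smallest p in wt belonged to Pdk1, a pyruvate dehydrogenase kinase (-2.12 ± 0.17), Bdh2, a cytosolic dehydrogenase (-2.58 ± 0.22), Sirt3, the mitochondrial deacetylase (-1.12 ± 0.10), and Plin5 (1.83 ± 0.16). In KO liver they were Pdk2, the main pyruvate dehydrogenase kinase of liver (-2.01 ± 0.13), Pdk1 (-2.31 ± 0.17), Plin2 (1.35 ± 0.10) and Acadsb, the dehydrogenase of branched short chains (-1.11 ± 0.09). Between 2 h and 6 h, 1 of the 55 rose and 30 fell in wt liver, against 10.9% and 16.8% of all genes, and 2 rose and 37 fell in KO liver, against 19.1% and 12.6%. The wt count that rose was 2 without either KO 6 h array, and the KO count was 1 without KO 6 h replicate 2. Between genotypes, 0 were called in untreated liver (limma, 5 with an unadjusted p under 0.05), against 0.00586% of all genes. At 2 h 1 was lower in KO liver, against 2.01% of all genes called in either direction: the transporter gene Slc27a4 (-0.51 ± 0.11, adjusted p = 0.0433). That call held without KO 2 h replicate 2 or either KO 6 h array and was lost without each of the 9 other arrays, after quantile normalization and with the compared groups alone (0.0541 to 0.251). Without KO 2 h replicate 2 the count was 4. At 6 h 7 were lower, against 4.93% of all genes: Acaa1a, Lpin2, Lpin1, Plin5, Pdk2, Sirt1 and Pank1, which are named after their values were seen. All 7 calls were lost without wt 6 h replicate 1 (adjusted p of 0.077 to 0.244) and without KO 6 h replicate 2 (0.0711 to 0.203), and with each of these arrays dropped 0 of the 55 were lower. With the compared groups alone 2 were. As the mean of the 3 conditions 1 was lower, against 1.45% of all genes: Acaa1a, the paralog of Acaa1b (-0.36 ± 0.06, adjusted p = 0.0198). That call was lost without any 1 of 6 arrays (0.0532 to 0.0707): untreated wt replicate 2, wt 6 h replicate 1 and both arrays of the untreated KO and wt 2 h groups. The count was 3 when untreated wt replicate 1 or wt 6 h replicate 2 was dropped, and 4 for KO 2 h replicate 2 or KO 6 h replicate 1.

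Markers of the cells a liver sample can hold were read beside these results. Of all tested genes, 6.53% rose and 6.17% fell at 2 h in wt liver, and 10.6% and 20.8% in KO liver. At 6 h these shares were 16.5% and 22% in wt and 15.8% and 19.1% in KO liver. Between genotypes 2.01% were called at 2 h, and 698 genes were higher and 840 lower in KO liver at 6 h. A marker count near these shares, for any cell type below, is not read as a change of that cell type. The 10 hepatocyte markers were all tested and had mean log2 values of 11.6 to 13.4, so the defining markers of the labelled tissue were present. Their summed intensity ran from 65169 to 72863 in untreated liver, 71235 to 78218 at 2 h, 65958 to 67711 in wt and 60534 to 60615 in KO liver at 6 h. At 2 h 2 of the 10 were called higher in wt and 0 in KO liver, and at 6 h 1 and 2 were called lower. Between genotypes 1 was called, Tat, the tyrosine aminotransferase, at -0.74 ± 0.11 in KO minus wt liver at 6 h (adjusted p = 0.00507). Fat tissue markers were low: 5 of 8 were tested, Cidea and Ucp1 were below the floor of a mean log2 of 5, and the sum of the 5 was 387 to 404 in untreated liver. It reached 520 to 561 in wt and 405 to 602 in KO liver at 2 h, and 773 to 1162 and 457 to 540 at 6 h, where 1 of the 5, Fabp4, was lower in KO than in wt liver. The 6 skeletal muscle markers summed to 440 to 555 in all arrays, with 1 of 6 called higher at 2 h in each genotype.

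Of other cells, the 10 markers of Kupffer cells and macrophages summed to 6166 to 7089 in untreated liver, and to 5038 to 5638 in wt and 4898 to 5656 in KO liver at 2 h. At 6 h the sums were 4607 to 5138 and 5315 to 5746. Of the 10, 3 were called lower at 2 h in each genotype, and at 6 h 6 were lower and 1 higher in wt and 4 lower and 2 higher in KO liver. Between genotypes Cd68 was lower in KO liver at 2 h and Adgre1 higher at 6 h. The 10 neutrophil markers differed between genotypes at 6 h, where 7 were called lower in KO liver, and 8 were above untreated liver in wt and 0 in KO liver (limma, 1 with an unadjusted p under 0.05). Their sum was 2213 to 4479 in wt and 572 to 702 in KO liver at 6 h, against 522 to 555 in untreated liver. Of the 6 erythroid markers 2 were tested, both called lower in KO liver at 6 h, with a sum of 1097 to 1815 in wt and 265 to 269 in KO liver. The 8 markers of sinusoidal endothelium summed to 6918 to 7326 in untreated liver, 6417 to 7029 in wt and 5587 to 5842 in KO liver at 2 h, and 5664 to 6457 and 4823 to 5771 at 6 h. Of these, 3 were lower in KO liver at 2 h, against 20.8% of all genes. At 6 h 5 were lower in each genotype, against 22% in wt and 19.1% in KO liver. In wt liver 2 were higher at 6 h, against 16.5%, and Pecam1 was lower in KO than in wt liver at 6 h. The 8 markers of stellate cells and fibroblasts summed to 5250 to 6375 in untreated liver, and to 5814 to 5941 in wt and 5493 to 5863 in KO liver at 6 h. Of these, 2 were lower at 2 h and 4 at 6 h in wt liver, and 3 at 2 h in KO liver. The 4 of 6 bile duct markers tested summed to 303 to 360 in untreated liver and to 726 to 1004 in wt and 398 to 848 in KO liver at 6 h. There 2 were higher than untreated liver in each genotype, and Krt7 and Krt19 were lower in KO than in wt liver. The 4 of 8 lymphocyte markers tested summed to 319 to 534 in all arrays, with Cd3e lower in KO than in wt liver at 2 h and Cd79b at 6 h. The part that cell composition has in the differences of the oxidation genes, between times or genotypes, was not tested.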

How the data were processed

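Liver RNA of 6 groups of 2 arrays was measured, grouped by title or source name. Per the submitters' processing notes, the authors used RMA and Affymetrix Expression Console, versions not given. What they deposited is normalized intensity on a linear scale, from which log2 was taken here with no pseudocount. Of 35556 probe sets, 21218 carry 1 gene symbol in the platform annotation; 1881 with several and 12457 with none were not used. Genes with a mean log2 of at least 5 were tested, each by its brightest probe set, which gave 17052 genes. RMA pulls low differences toward 0 and assumes like distributions across arrays.

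A model of 6 group means was fitted to all 12 arrays (limma 3.58.1, R 4.3.3, lmFit with eBayes, 6 residual and 4.33 prior degrees of freedom). P-values are two-sided and adjusted by Benjamini-Hochberg over all tested genes in each of 13 comparisons, and a gene was called under 0.05. The fit was tested on simulated data.

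Values in every array are given for Pml, Ppara, Cpt1a, Pdk4, Ehhadh and Acot1 and for members among the 3 largest rises or falls called in a comparison; members called between genotypes are named, and up to 4 genes of the wider list with the smallest p at each time and genotype. Others named were chosen after their values were seen. The members and lists were chosen with earlier results of these data known.

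Replicate numbers were not shown to pair the arrays: over 15 pairs of groups, deviations of same-numbered arrays correlated at -0.13 to 0.18, and 4 were over 0.1. Correlations over all genes cannot exclude a pairing within some groups. Alternatives were quantile normalization, no filter or one at a mean log2 of 7, averaging the probe sets, eBayes with a trend, only the groups compared, the replicate block, adding 16 before log2, and leaving out each array. Promoters came from RefSeq (GRCm38.p6).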

Additional observations from a re-analysis of the deposited data

Results flagged for a closer look

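No gene of the oxidation set met a rule for a closer look, and 8 genes of the wider pathway list did. For 4 of them, of 55 genes tested, the step from 2 h to 6 h differed between genotypes by the test of that difference (limma). That share is close to the 7.03% of all genes called for this step. After quantile normalization 1 of the 55 was higher and 1 lower. Over all genes that normalization moved the calls of this step from 847 higher and 351 lower to 343 and 355. The KO step minus the wt step was 1.15 ± 0.25 for Slc16a1, the monocarboxylate transporter that carries ketone bodies (adjusted p = 0.0326), and -1.43 ± 0.26 for Sirt1, a deacetylase that acts on PPAR-alpha's coactivator (adjusted p = 0.021). It was -2.06 ± 0.51 for Lpin1 and -1.55 ± 0.40 for Lpin2, the lipins, which make diacylglycerol, and lipin 1 also coactivates PPAR-alpha (adjusted p = 0.0427 and 0.0475). Lpin1 differed from 2 h to 6 h by -1.01 ± 0.36 in wt and -3.07 ± 0.36 in KO liver, and Lpin2 by -0.37 ± 0.29 and -1.92 ± 0.29. Of 20 alternative settings, 13 ended the call of Lpin1, 12 that of Lpin2, 10 that of Slc16a1 and 5 that of Sirt1.

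For 5 genes, both treated arrays lay above both untreated arrays in 1 genotype and below them in the other. How many of all tested genes do the same was not counted. With so few arrays a group such a separation can also arise by chance, so the count of 5 is not shown to exceed chance. The difference of responses was tested and did not pass in any of the 5. At 6 h it was -2.68 ± 0.51 for Lpin1 (adjusted p = 0.0566), -0.50 ± 0.15 for Acaa1a (0.147) and -0.24 ± 0.13 for Hsd17b4, a peroxisomal enzyme (0.391). At 2 h it was -0.55 ± 0.15 for Slc27a4 (0.198) and 0.28 ± 0.20 for Fads2, a desaturase (0.528).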

How the results depend on the processing

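Of 137 calls of oxidation genes over all comparisons, none changed sign under the alternatives tried. Without a filter 132 stayed called, after quantile normalization 131, with the compared groups alone 112, and with the replicate block 134, while a mean log2 of at least 7, the mean of probe sets, a variance trend and log2 of the value plus 16 kept 137. Leaving out 1 array kept 111 to 132.

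The count higher in wt liver at 2 h (21) was 13 to 23 with 1 array left out, and that at 6 h (8) was 5 to 9. The 1 gene lower in wt at 2 h was 0 after quantile normalization and 0 to 1 with an array left out. The 1 gene lower in KO liver at 2 h was 0 with the compared groups alone and 0 to 1 with an array left out. The count lower from 2 h to 6 h in wt (28) was 14 to 28 with an array left out and 24 to 28 under the other settings. That in KO liver (28) was 21 to 29 with an array left out and 19 to 30 under the other settings. The 2 genes called between genotypes at 6 h became 4 with a mean log2 of at least 7, 6 after quantile normalization, 5 with a variance trend, 0 with the compared groups alone and 0 to 8 with an array left out. The 2 called as the mean of the 3 conditions became 1 without a filter, 1 after quantile normalization, 5 with a trend, 1 with the replicate block, and 0 to 6 with an array left out. The 0 genes whose step differed between genotypes were 0 to 2 with an array left out. The causes were not tested.

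A pairing of replicate numbers was neither shown nor excluded, and the replicate block left the other counts within 1 gene of the unblocked ones. All 34 oxidation genes had a mean log2 above the floor of 5, the dimmest being Acads at 9.54.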
